A study of Mus musculus with 14 samples.

Results

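The blood vessels of the embryonic brain were followed here through 10 genes that mark their cells. Cldn5, Pecam1, Cdh5, Kdr, Flt1, Slco1c1 and Mfsd2a are genes of endothelial cells, which line the vessels, and Pdgfrb, Rgs5 and Kcnj8 are genes of mural cells (pericytes and smooth muscle), which wrap them. The genes were listed by name, and each was taken as the locus of the gene table with that symbol and the highest mean. All 10 were found, out of 17449 symbols that could be attached to the 59796 loci of the table, and each symbol had 1 locus.

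RNA was measured by RNA-seq in 14 libraries of embryonic mouse hippocampus dissected between E16 and E18. The study asked what the extra copy of Dyrk1a and the other genes orthologous to human chromosome 21 do in models of Down syndrome. Each model came with its own controls. Of the libraries, 3 were of 189N3 embryos (Tg(Dyrk1a)189N3Yah), which carry an extra copy of the Dyrk1a locus on a bacterial artificial chromosome, and 3 of their wild-type littermates, while 4 were of Dp(16)1Yey embryos, which carry a duplication of the chromosome 16 segment from Lipi to Zfp295, and 4 of their wild-type littermates. In both models the extra copy is present in every cell and not in vessels alone. The labels give the stage as E16 to E18 and the main text of the paper as E17. The litter is not given in the sources used here, nor is it said whether a library is 1 embryo, so p-values measure the spread between libraries.

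Brain endothelial cells form the blood-brain barrier. They seal their contacts with tight junctions (Cldn5) and adherens junctions (Cdh5, VE-cadherin), and carry transporters for what the brain needs, such as thyroid hormone (Slco1c1) and lipids that contain docosahexaenoic acid (Mfsd2a). They grow in response to VEGF, read by the receptors Kdr and Flt1, of which Flt1 binds VEGF tightly and signals weakly. Pericytes are recruited to new vessels through Pdgfrb, the receptor for PDGF-B that endothelial cells release, and express Rgs5, a brake on G protein signalling, and Kcnj8, the pore of an ATP-sensitive potassium channel. Pecam1 is an adhesion molecule at endothelial contacts.

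The 4 members whose values the results turn on are shown by the 250 bases before their transcription start. Values of Slco1c1, Rgs5 and Mfsd2a did not overlap between the wild-type libraries of the lines, and Flt1 had the largest estimate of the members in each model. The sequences are of GRCm38.p6, from RefSeq, read 5′ to 3′ on the strand of the gene. The windows are chr6:141524104-141524353 on the plus strand for Slco1c1, chr5:147726012-147726261 on the minus strand for Flt1, chr1:169655251-169655500 on the plus strand for Rgs5 and chr4:122961189-122961438 on the minus strand for Mfsd2a. Capitals mark matches to GGAAG on either strand, the core letters bound by ETS factors, a family with several members in endothelial cells.
Slco1c1: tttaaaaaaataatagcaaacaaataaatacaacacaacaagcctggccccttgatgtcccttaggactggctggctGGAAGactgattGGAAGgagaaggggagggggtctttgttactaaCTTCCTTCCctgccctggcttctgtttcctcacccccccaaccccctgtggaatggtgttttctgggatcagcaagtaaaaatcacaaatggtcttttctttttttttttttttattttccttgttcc
Flt1: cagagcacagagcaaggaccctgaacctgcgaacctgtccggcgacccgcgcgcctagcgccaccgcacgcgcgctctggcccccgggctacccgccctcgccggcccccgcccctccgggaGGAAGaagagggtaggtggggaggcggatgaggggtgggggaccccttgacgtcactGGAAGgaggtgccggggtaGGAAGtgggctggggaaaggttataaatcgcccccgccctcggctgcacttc
Rgs5: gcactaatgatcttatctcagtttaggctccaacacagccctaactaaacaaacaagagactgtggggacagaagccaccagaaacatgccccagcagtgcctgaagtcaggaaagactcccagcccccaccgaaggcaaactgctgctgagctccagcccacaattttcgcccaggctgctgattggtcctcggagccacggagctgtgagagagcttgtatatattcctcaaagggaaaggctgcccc
Mfsd2a: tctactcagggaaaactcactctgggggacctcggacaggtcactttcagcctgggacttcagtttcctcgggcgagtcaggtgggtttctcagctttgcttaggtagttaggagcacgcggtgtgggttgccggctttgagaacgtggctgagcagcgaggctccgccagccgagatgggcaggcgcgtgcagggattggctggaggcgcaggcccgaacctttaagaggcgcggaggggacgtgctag

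Windows of 300 bases, from 250 before to 50 after the start, were at hand for 7 of the 10 members (these 4, Cldn5, Kdr and Kcnj8). GGAAG occurred 4 times before Slco1c1, at bases -173 and -161 on the strand of the gene and at -128 and -124 on the other. Flt1 held it 3 times, at -128, -71 and -52, and Kdr 1 time, at -216. Rgs5, Mfsd2a, Cldn5 and Kcnj8 held it 0 times, whereas 71.1% of 27025 promoter windows of this length held it, so that a match is common. TATAAA, the letters of the TATA box, stood at -31 of Flt1 and, after the start, at 3 of Slco1c1, and was in 14.2% of all windows. Positions in Slco1c1 count from the start used for its window, which lies before the gene start at 141524368 given below. TAAACA, the letters of forkhead factors, stood at -205 of Rgs5 and at 5 of Slco1c1 and was in 13.4%. The letters describe the windows and do not show that a factor binds there.

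The members lie on 8 chromosomes, and none is in the triplicated segment. Cldn5 (GRCm38 chr16:18776847-18778262, plus strand) is on chromosome 16 but outside the segment. Slco1c1 (chr6:141524368-141570177) and Kcnj8 (chr6:142564837-142571614) are neighbours at a distance on chromosome 6, and Kdr (chr5:75932827-75978458) and Flt1 (chr5:147561604-147726011) share chromosome 5. The others are Pecam1 (chr11:106654217-106750628), Cdh5 (chr8:104101625-104144511), Mfsd2a (chr4:122946850-122961188), Pdgfrb (chr18:61045150-61085061) and Rgs5 (chr1:169655501-169695813). The GC content of their transcripts ran from 41.1% in Rgs5 and 43.1% in Slco1c1 to 60.5% in Cldn5, with the other 7 between 49.4% and 54.9%. Transcript GC matters below, because libraries differed in how their values followed it.

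Values are fragments per locus divided by 1 size factor per library, as deposited, and libraries held 20809134 to 29098454 fragments, with 1 fragment worth 0.816 to 1.21 units. Dyrk1a was at 1.58 to 2.36 times its littermate mean in 189N3 libraries, and 65 genes of the triplicated segment had a median of 1.33 to 1.61 times theirs in 3 of the 4 Dp(16)1Yey libraries. The library labelled Dp(16)1Yey replicate 1 went against its label: its median over these genes was 1.12, next to 0.895 to 1.10 in littermates, its Dyrk1a was at 0.763 times their mean, and Hbb-y, an embryonic globin, was at 5846 units against 1.98 to 236 elsewhere. Among Dp(16)1Yey littermates, replicates 0 and 1, and replicates 2 and 3, differed by only 1.65 and 2.003 times the counting noise, against 31.5 to 36.5 for the other pairs of that group. The 189N3 library of replicate 2 was high over most loci (a median of 0.36 on the log2 scale above all libraries). Among Dp(16)1Yey libraries, replicate 3 was low in this respect (-0.23) and replicate 0 high (0.18). Whether these shifts took part in the vessel values was not tested. The medians and counts of the member and vessel lists in each model are followed by those without 189N3 replicate 2 and those with the library labelled Dp(16)1Yey replicate 1 left out.

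All 10 members were well above the filter for testing (a mean of 10) in every library, from 62.8 units for Kcnj8 to 2283 for Rgs5. Divided by transcript length, the mean levels over 14 libraries were 372 units per kb for Slco1c1 and 313 for Rgs5, followed by Mfsd2a at 204, Cldn5 at 155, Kdr at 132 and Pecam1 at 127. Cdh5 stood at 63.2 units per kb, Pdgfrb at 49.8, Kcnj8 at 41.8 and Flt1 at 36.6. Most neighbours in this order did not differ beyond their spread over libraries. The exceptions were Pecam1 over Cdh5, with a log2 ratio per kb of 1.02 ± 0.22 (SD) and the same order in 14 of 14 libraries, and Cdh5 over Pdgfrb, at 0.35 ± 0.28 and in 12 of 14. The position of Rgs5 over Mfsd2a held in all 6 libraries of the 189N3 line and in 2 of 8 of the Dp(16)1Yey line.

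**Figure D1:**
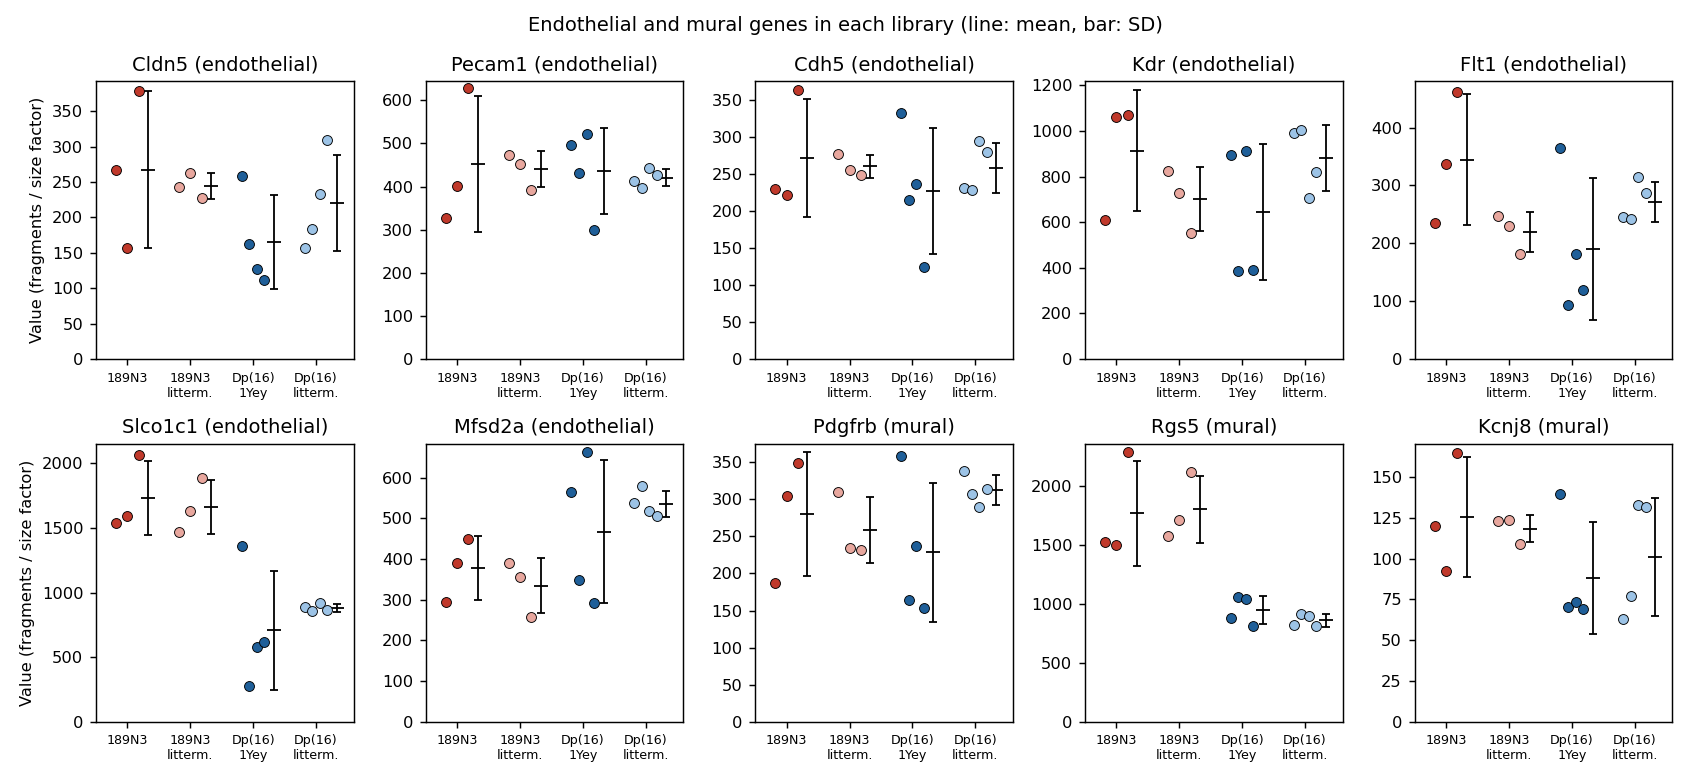
Values of the 10 genes (fragments divided by a size factor, linear axes from 0) in each of 14 libraries, by group, with points for libraries, a line for the mean and a bar for the SD. Slco1c1 and Rgs5 sit higher in both groups of the 189N3 line. For Slco1c1, Flt1, Kdr and Pdgfrb, among others, the Dp(16)1Yey libraries are spread more widely than their littermates. The 189N3 libraries are also spread more widely than theirs.

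The first comparison asks what an extra copy of Dyrk1a did to vessel genes. No member passed the test in 189N3 embryos, and all 10 overlapped between 189N3 and littermate libraries. The level of Rgs5 was 1769 ± 445 units (SD, n = 3) in 189N3 and 1800.2 ± 286 in littermates (n = 3), and Slco1c1 was at 1732 ± 287 and 1662 ± 211. Cdh5 was at 271 ± 79.6 and 260.1 ± 15.3, and Pecam1 at 452 ± 157 and 439.9 ± 42.1.

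The VEGF receptors had the largest differences. Flt1 was at 235, 337 and 461 units in 189N3 libraries and at 248, 230.1 and 181 in littermates, so that 2 of 3 189N3 libraries lay above all controls. Its log2 difference was 0.60 (SE 0.28, limma, unadjusted p = 0.0468, Benjamini-Hochberg adjusted p = 1.00), and an exact two-sided permutation test gave p = 0.2, where 3 against 3 can reach 0.1 at best. Kdr was at 608, 1059.7 and 1072 units in 189N3 libraries and at 825, 728 and 552 in littermates. The estimate for Kdr was 0.35 (SE 0.27, unadjusted p = 0.218 in limma, exact p = 0.3).

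Among the other members the log2 differences were 0.17 for Mfsd2a, 0.08 for Pdgfrb, 0.05 for Slco1c1 and Kcnj8, 0.04 for Cldn5, 0.03 for Cdh5, -0.01 for Pecam1 and -0.04 for Rgs5, with standard errors of 0.23 to 0.30. Over all 35899 loci tested 0% were called at an adjusted p under 0.05 in limma (the smallest adjusted p was 0.0955), 1.87% had an unadjusted p under 0.05 and 4.98% did not overlap between groups. Dyrk1a itself, present in an extra copy, was thus not called, so a difference of that size can go without a call. On whole fragments recovered from the values, edgeR called 0 loci and DESeq2 15, and limma called 28 without 189N3 littermate replicate 1 and 2 without 189N3 littermate replicate 0. The 7 endothelial members had a median of 0.05 and the 3 mural members also 0.05, beside -0.04 over all loci. Without 189N3 replicate 2, the highest library of that group for all 10 members, 0 of 36208 loci were called, the endothelial median was -0.08 and the mural median -0.17, and Flt1 and Kdr were at 0.37 and 0.21. Whether its general shift took part in the member values was not tested.

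The second comparison asks the same of the whole duplicated segment. No member passed the test in Dp(16)1Yey embryos, and all 10 overlapped with littermates. Values of 6 of the 7 endothelial members and of 2 of the 3 mural members were on average lower than in littermates, with wide spread. In bulk tissue, fewer vessel cells and less RNA per cell cannot be told apart.

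Flt1 was at 365, 92.9, 182 and 119 units in Dp(16)1Yey libraries (replicates 0 to 3) and at 245, 241, 314 and 286 in littermates. The Dp(16)1Yey values thus enclosed those of littermates, with replicate 0 above all controls and the other 3 below them. Its log2 difference was -0.71 (SE 0.35, unadjusted p = 0.0671, adjusted p = 0.909 in limma), with an exact p of 0.171. The exact tests in this model count each littermate library as a separate sample, although they came in nearly alike pairs. The limma fits with these littermates, here and below, do so too, and their p can be too small. Pdgfrb was at 358, 165, 237 and 154 units against 338, 308, 289 and 313, again with replicate 0 above and the other 3 below all controls. It differed by -0.53 (SE 0.25, unadjusted p = 0.0564, adjusted p = 0.909 in limma, exact p = 0.143, the smallest possible being 0.02857). Kdr was at 894, 384, 912 and 392.5 units against 993, 1005, 707 and 822, a difference of -0.56 (SE 0.30, unadjusted p = 0.0905 in limma, exact p = 0.229).

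Slco1c1 showed the widest spread of the members. The Dp(16)1Yey libraries were at 1358, 276, 582 and 619 units, whereas the littermates stood together at 885, 854, 921 and 867. The group means were 709 ± 459 and 882 ± 29.0 (SD, n = 4 each), coefficients of variation of 64.8% and 3.29%, and the log2 difference was -0.54 (SE 0.37, adjusted p = 0.909 in limma). By this coefficient the spread was wider in Dp(16)1Yey than in littermates for every member. Examples are Flt1 (64.7% and 12.8%), Kdr (46.0% and 16.3%), Pdgfrb (41.1% and 6.43%), Mfsd2a (37.6% and 5.89%) and Pecam1 (22.8% and 4.76%). The gap was small for Kcnj8 (38.8% and 35.9%). In the 189N3 line, too, every member was spread more widely in the model libraries, such as Cldn5 (41.5% and 7.44%) and Mfsd2a (20.7% and 20.3%). Since Dp(16)1Yey littermate libraries came in nearly alike pairs, their spread may be that of fewer than 4 samples. The differences in spread were not tested, nor set beside those of other loci.

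The other estimates in Dp(16)1Yey embryos were -0.45 (SE 0.29) for Cldn5, -0.27 (SE 0.25) for Mfsd2a, -0.26 (SE 0.27) for Cdh5, -0.19 (SE 0.31) for Kcnj8, 0.02 (SE 0.19) for Pecam1 and 0.13 (SE 0.15) for Rgs5, with adjusted p of 0.909 to 0.983 in limma. Rgs5 was at 947 ± 122 units in Dp(16)1Yey and 861 ± 53.4 in littermates, and Pecam1 at 437 ± 99.4 and 420.3 ± 20.02. Across 36024 loci 0% were called at an adjusted p under 0.05 in limma (smallest 0.909), 3.53% had an unadjusted p under 0.05 and 2.45% did not overlap. Genes of the triplicated segment were thus not called either, so differences of their size can go without a call. On whole fragments edgeR called 0 loci and DESeq2 8. The endothelial median was -0.45 and the mural median -0.19, beside 0.03 over all loci. With the library labelled Dp(16)1Yey replicate 1 left out, these medians were -0.26 and -0.10, Slco1c1 went from -0.54 to -0.16, Flt1 to -0.44, Kdr to -0.35 and Pdgfrb to -0.40, and 3 loci were called. The medians were -0.29 and -0.10 without replicate 3, the lowest library over all loci, and -0.69 and -0.43 without replicate 0, the highest.

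Every member had estimates of opposite sign in the models, which raises the question whether the models differed. Flt1 and Kdr, which both bind VEGF, were thus not alone in this, and had the largest estimates in 189N3. The difference of differences (Dp(16)1Yey minus 189N3) was -1.32 for Flt1 (SE 0.50, unadjusted p = 0.0183, adjusted p = 0.922 in limma) and -0.91 for Kdr (SE 0.45, unadjusted p = 0.0585). It was -0.61 for Pdgfrb, -0.59 for Slco1c1, -0.49 for Cldn5, -0.45 for Mfsd2a, -0.29 for Cdh5, -0.23 for Kcnj8, 0.04 for Pecam1 and 0.17 for Rgs5. None passed the adjustment. Of 36045 loci 0% were called in limma, 2.66% had an unadjusted p under 0.05, and edgeR and DESeq2 called 0. Without 189N3 replicate 2 the estimate for Flt1 was -1.08 (unadjusted p = 0.0581 in limma) and that for Kdr -0.77, while Cldn5 went to -0.19, Kcnj8 to -0.02 and Rgs5 to 0.37. With the library labelled Dp(16)1Yey replicate 1 left out, Flt1 was at -1.04 (unadjusted p = 0.0384 in limma), Kdr at -0.70 and Slco1c1 at -0.22.

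**Figure D2:**
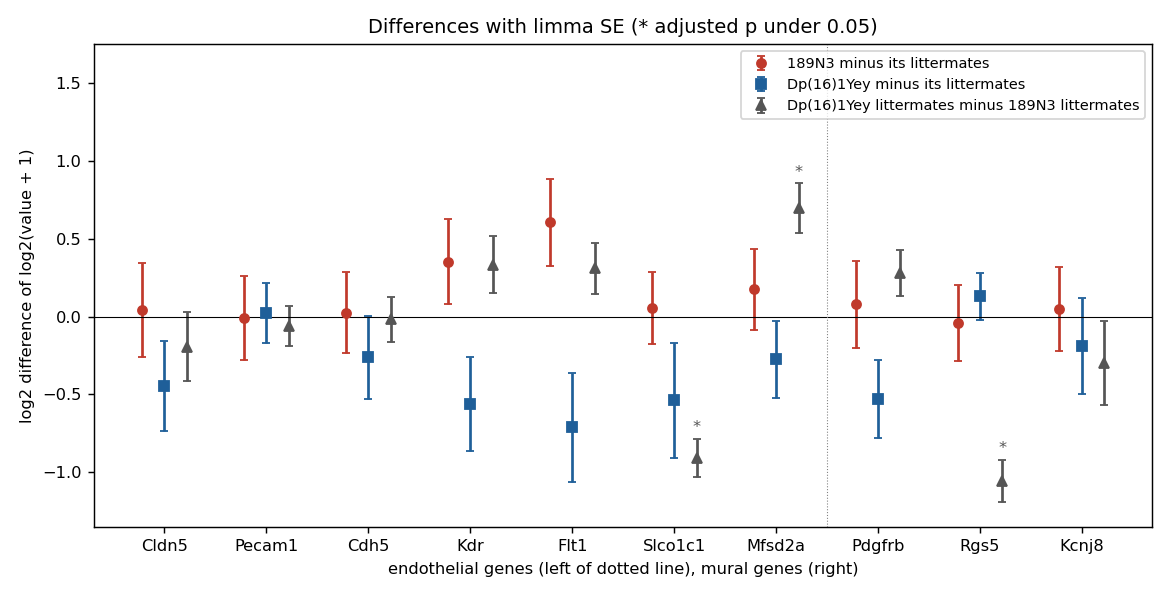
Log2 differences of log2(value + 1) with limma standard errors as bars, for each gene in 189N3 (circles), Dp(16)1Yey (squares) and between the wild-type littermates of the lines (triangles), with a star at an adjusted p under 0.05. The stars are on Slco1c1 at -0.91, Mfsd2a at 0.70 and Rgs5 at -1.05, all between littermates.

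The wild-type embryos of the lines carry no extra gene copy, and comparing them shows what differed between the experiments apart from the models. Here 3 members passed the test. Rgs5 was at 1572, 1708 and 2121 units in littermates of the 189N3 line and at 823, 917, 895 and 808 in those of the Dp(16)1Yey line, with no overlap. It fell by 1.05 on the log2 scale from the 189N3 to the Dp(16)1Yey line (SE 0.13, adjusted p = 0.0173 in limma). Slco1c1 was at 1466, 1635 and 1885 units against 885, 854, 921 and 867, a difference of -0.91 (SE 0.12, adjusted p = 0.0223 in limma). Mfsd2a moved the other way, from 390, 356 and 259 units to 537, 579, 519 and 507 (0.70, SE 0.16, adjusted p = 0.0464 in limma). An exact two-sided permutation test gave p = 0.0571 for each of the 3, the smallest that 3 against 4 allows. Like the limma fit, this test counts each Dp(16)1Yey littermate library as a separate sample, although they came in nearly alike pairs. The p of both can be too small.

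The other 7 members overlapped between the wild-type groups. Their log2 differences were 0.33 (SE 0.18) for Kdr, 0.31 (SE 0.16) for Flt1, 0.28 (SE 0.15) for Pdgfrb, -0.30 (SE 0.27) for Kcnj8, -0.19 (SE 0.22) for Cldn5, -0.06 (SE 0.13) for Pecam1 and -0.02 (SE 0.15) for Cdh5. So the pan-endothelial genes Pecam1 and Cdh5 were at like levels (420.3 ± 20.02 against 439.9 ± 42.1 units and 258 ± 33.3 against 260.1 ± 15.3) in libraries where transporter genes of the barrier stood apart. Loci that passed the test were common in this comparison: 3.75% of 36047 were called in limma, 26% had an unadjusted p under 0.05 and 25.5% did not overlap. Counting the nearly alike littermate pairs as 1 sample each, 28 loci were called and none of the 3 members, at adjusted p of 0.132 for Rgs5, 0.209 for Slco1c1 and 0.242 for Mfsd2a in limma.

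Leaving out 1 library brought the number of called loci to between 13 and 78. Rgs5 lost its call without any 1 of the 3 189N3 littermates or without Dp(16)1Yey littermate replicate 0 (adjusted p of 0.0589 to 0.106 in limma), Slco1c1 without these or Dp(16)1Yey littermate replicate 1 (0.0526 to 0.129) and Mfsd2a without any of the 7 (0.0671 to 0.145). The differences stayed within -1.15 to -0.93, -0.99 to -0.81 and 0.52 to 0.82.

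The model libraries of the lines, which do not enter that comparison, were set side by side in the same direction. Rgs5 was at 1527, 1498 and 2283 units in 189N3 and at 883, 1059.02, 1039 and 808 in Dp(16)1Yey, a difference of -0.88 (SE 0.25, adjusted p = 0.219 in limma) with no overlap. Slco1c1 was at 1539.8, 1593 and 2062 units against 1358, 276, 582 and 619, a difference of -1.50 (SE 0.41, adjusted p = 0.219), also with no overlap. Mfsd2a overlapped, at 0.25 (SE 0.31), as did the other 7, from -1.01 for Flt1 to -0.03 for Pecam1. In this comparison 0.05% of 35978 loci were called in limma and 13.6% did not overlap. With the library labelled Dp(16)1Yey replicate 1 left out, Rgs5 was at -0.94 and Slco1c1 at -1.12, and without 189N3 replicate 2 they were at -0.68 and -1.37. These embryos differ in their extra copies as well as in line. Line, litter, day between E16 and E18 and sequencing run cannot be told apart in either comparison.

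Values followed transcript GC differently in the wild-type groups of the lines, though less so in most model libraries. Rgs5 and Slco1c1 have the lowest GC of the members. The correlation of a library's deviations with GC over 10448 loci ran from -0.60 to -0.09 in the 6 libraries of the 189N3 line and from 0.14 to 0.69 in the Dp(16)1Yey littermates, and was 0.62, -0.19, -0.07 and -0.18 in Dp(16)1Yey replicates 0 to 3. Over 13434 named loci the log2 difference between wild-type groups correlated with GC at 0.52, and at -0.01 after each library was corrected for its GC trend. After this correction Rgs5 was at -0.72 (SE 0.09, adjusted p = 0.0205 in limma) and Slco1c1 at -0.66 (SE 0.08, adjusted p = 0.0193). Mfsd2a was at 0.41 and was no longer called (adjusted p = 0.150), while Cldn5, the member richest in GC, was called at -0.60 (SE 0.12, adjusted p = 0.0385 in limma). The correction is an addition made after the data had been seen.

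Loci called among those 13434 numbered 806 after the correction (357 higher and 449 lower in the Dp(16)1Yey line) and 2023 before it (1096 higher and 927 lower). The correction also removes the general shift of each library, and removing that shift alone gave 3191 calls. With the GC correction the estimate for Kcnj8 went to -0.55 (adjusted p = 0.137 in limma) and that for Cdh5 to -0.22. Those for Kdr and Flt1 stayed positive at 0.25 and 0.18. In the genotype comparisons the correction left 0 loci called. It moved Cldn5 in Dp(16)1Yey from -0.45 to -0.17, and Flt1, at -0.64, Kdr, at -0.51, and Slco1c1, at -0.64, by less. On the corrected values the endothelial median in Dp(16)1Yey was -0.17 and the mural median -0.05, against -0.45 and -0.19 as deposited, and in 189N3 they were 0.02 and -0.04. In 189N3 Flt1 was at 0.53 (SE 0.19, unadjusted p = 0.0234, adjusted p = 0.939 in limma).

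**Figure D3:**
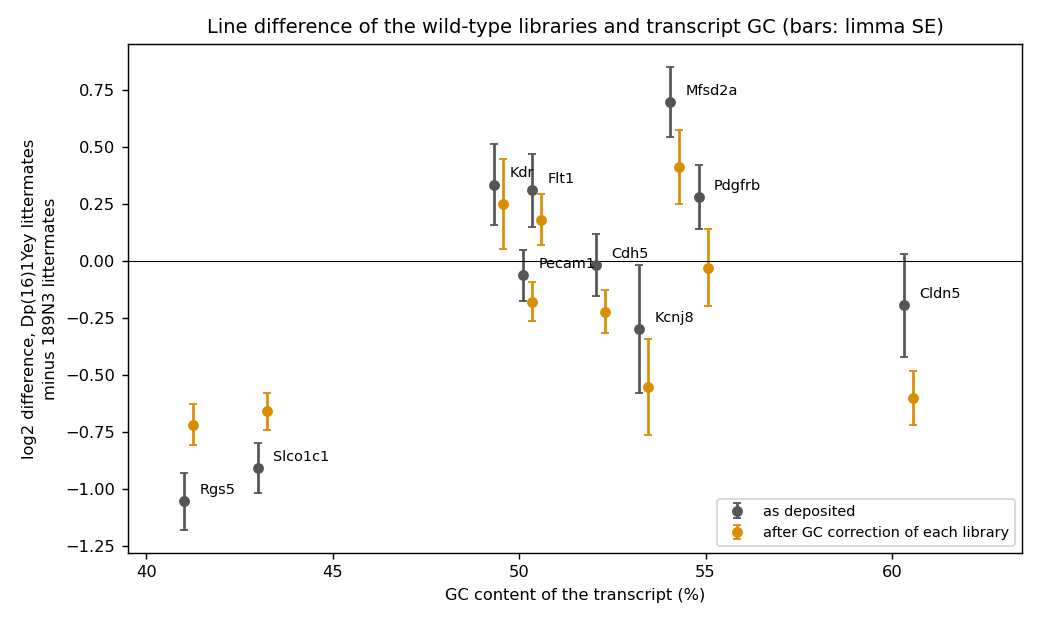
Log2 difference between the wild-type littermates of the Dp(16)1Yey and the 189N3 line (y) against transcript GC content in percent (x), as deposited (grey) and after GC correction (orange), with limma standard errors as bars and points set slightly apart along x. Rgs5 and Slco1c1, at 41.1% and 43.1% GC, are lowest as deposited and stay below -0.60 after correction, where Cldn5 joins them at -0.60.

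Cldn5 and Kcnj8 also split within the Dp(16)1Yey line, between libraries that differed in how their values followed GC. Kcnj8 was at 139, 133 and 131 units in Dp(16)1Yey replicate 0 and littermate replicates 2 and 3, the 3 libraries whose correlation with GC was 0.58 to 0.69, and at 62.8 to 77.2 in the other 5. Cldn5 was at 259, 233 and 309 units in those 3 libraries and at 112 to 183 in the other 5. Mfsd2a and Pdgfrb, at 54.2% and 54.9% GC against 53.3% for Kcnj8, did not split in this way. Mfsd2a was at 564, 519 and 507 units in those 3 libraries and at 292 to 663 in the other 5. Neuron markers summed to 94914, 86064 and 87922 units in those 3 and to 60099 to 74052 in the other 5. The part of GC or of other cells in this split was not tested.

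Across libraries the endothelial and mural genes varied together. Each gene was centred on its group means, so that only variation between libraries of a group counts, and the mean of the 7 endothelial genes correlated with that of the 3 mural genes at r = 0.88 (Spearman rho = 0.82, n = 14 libraries). Without the 2 libraries farthest from the median it was r = 0.80 (rho = 0.71, n = 12), and after GC correction r = 0.84 (rho = 0.81). The points share each library's size factor, depth and base composition. The median deviation of all loci in a library correlated with the endothelial mean at r = 0.71 and with the mural mean at r = 0.85.

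Pairs of members differed widely in this respect. The 21 endothelial pairs had a median r of 0.66 (0.12 to 0.94) as deposited and of 0.41 (-0.21 to 0.90) after GC correction. The 3 mural pairs had a median of 0.14 and, after correction, -0.21, below the 0.55 and 0.43 of 21 mixed pairs. As deposited, the mural pairs with Rgs5 were at 0.13 and 0.14, and Pdgfrb with Kcnj8 was at 0.43. With endothelial genes Rgs5 ran from -0.07 (Slco1c1) to 0.58 (Pecam1), so 1 gene weighs on the mural median. After correction the closest pairs were Kdr with Mfsd2a (0.90), Kdr with Pdgfrb (0.88) and Flt1 with Slco1c1 (0.85). These values describe 14 libraries and carry no test.

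**Figure D4:**
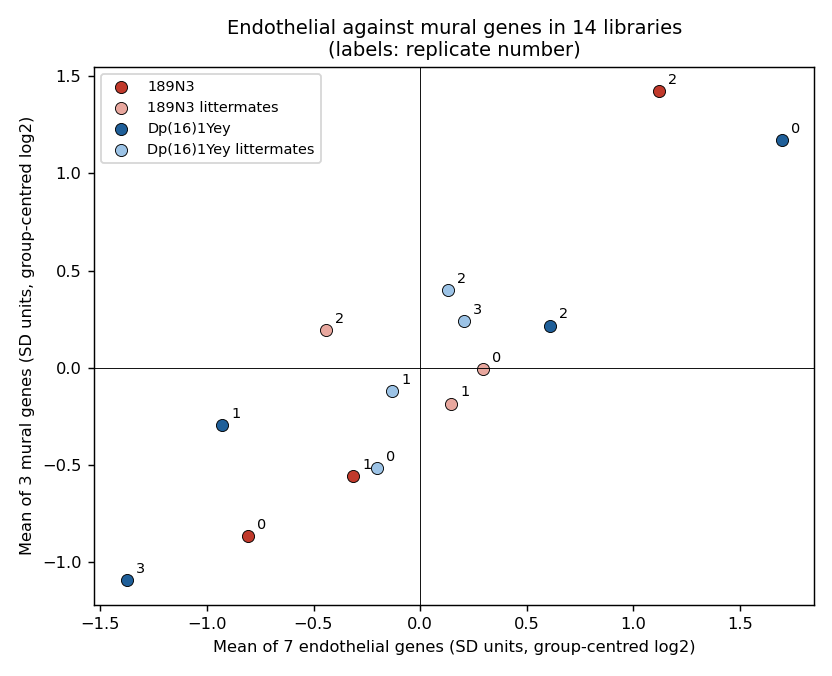
Mean of the 3 mural genes (y) against that of the 7 endothelial genes (x) in 14 libraries, both as group-centred log2 values in SD units, with the replicate number beside each point. Points run along the diagonal (r = 0.88), with 189N3 replicate 2 and Dp(16)1Yey replicate 0 at the upper end and Dp(16)1Yey replicate 3 at the lower.

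The loci most like the endothelial mean were not vessel genes as deposited. Of 11238 other named loci with a mean of at least 100, the 10 closest were Mon2, Arsa, Lats1, Gm2a, Suv420h1, Akap12, Dync1h1, Nckap1, Hexa and Zfp46, at r of 0.97 to 0.98, none of them on the vessel lists used here. For the mural mean they were Grk5, Tmem64, Arid3a, Kank3, Pgm2, Rps6ka5, Cnot8, Clip4, Serpinb6a and Sc5d, at 0.94 to 0.98. After GC correction the endothelial list was Arsa, Col4a1, Srprb, Clcn3, Agfg1, Ptprb, Sdc2, Champ1, Osbpl11 and Strada, at 0.89 to 0.93, of which Ptprb, an endothelial phosphatase, is on a vessel list. The mural list was then Grk5, Fmo1, Tmem64, Osbpl11, Scamp4, Vtn, Ankib1, Bnip3, Vwf and Pros1, at 0.79 to 0.84, of which Vtn (vitronectin of pericytes) and Vwf (von Willebrand factor of endothelium) are on vessel lists and Bnip3 on that of the hypoxia response.

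Isoform values give each member's transcripts separately, as estimated shares of the locus. Flt1 was mostly 2 isoforms, of which the larger (uc009aoi.2) made up 59.8% of the locus in 189N3, 53.2% in its littermates, 52.3% in Dp(16)1Yey and 48.8% in its littermates. It was at 207 ± 72.5, 115 ± 12.05, 99.5 ± 62.2 and 133 ± 27.3 units in these groups, and its difference of differences was -1.38 (SE 0.61, unadjusted p = 0.0430, adjusted p = 0.950 in limma). This was -1.17 without 189N3 replicate 2 (unadjusted p = 0.102 in limma) and -1.03 with the library labelled Dp(16)1Yey replicate 1 left out (unadjusted p = 0.0708). Slco1c1 was 90.1% to 94.8% a single isoform in every group mean. Of all isoforms of members with a mean of at least 10, 1 passed the test in any comparison, the single isoform of Rgs5 between littermates (-1.05, adjusted p = 0.0490 in limma), where 0.208% of 60638 isoforms were called.

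Pecam1 was split over 7 isoforms with a mean of at least 10, and 1 of them (uc007lzh.1) was at 43.3 ± 19.4 units in Dp(16)1Yey littermates and listed at 0.0 in all 4 Dp(16)1Yey libraries. It was at 0.1 ± 0.2 in 189N3 and 3.9 ± 6.7 in its littermates. Its log2 difference in Dp(16)1Yey was -5.36 (SE 0.58, adjusted p = 0.0544 in limma, and 0.0924 without the library labelled replicate 1), while the locus as a whole differed by 0.02. An isoform listed at 0 can be an estimate that went to a near-identical transcript of the gene, which was not tested.

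Other genes of vessels were read from lists. Of 30 further endothelial genes, 29 were tested in 189N3 and 28 in Dp(16)1Yey, and none was called in either model or in their difference. In 189N3, 24 had a positive and 5 a negative estimate (median 0.17), and without replicate 2 the numbers were 17 and 12 (median 0.04). In Dp(16)1Yey 5 were positive and 23 negative (median -0.27), and without the library labelled replicate 1 the numbers were 6 and 22 (median -0.13). They were 11 and 17 (median -0.10) without replicate 3, and 3 and 25 (median -0.35) without replicate 0. Nos3, the endothelial nitric oxide synthase, had the smallest p in Dp(16)1Yey (-0.75, SE 0.27, unadjusted p = 0.0193, adjusted p = 0.909 in limma), at 43.9 ± 17.7 units against 71.3 ± 13.7. It was at -0.67 (unadjusted p = 0.0495 in limma) without the library labelled replicate 1. Ly6c1, a surface protein of brain endothelium, was at -0.65, Sox17, a factor of arterial fate, at -0.57 and Cd93, an adhesion receptor, at -0.33.

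Of 15 further mural genes 9 had positive and 6 negative estimates in 189N3 (median 0.11), and 2 and 11 of 13 tested in Dp(16)1Yey (median -0.32). Without 189N3 replicate 2 they were 5 and 10 (median -0.14), and with the library labelled Dp(16)1Yey replicate 1 left out they were 4 and 9 (median -0.26). Leaving out Dp(16)1Yey replicate 3 gave 5 and 8 (median -0.20), and leaving out replicate 0 gave 0 and 13 (median -0.39). Cspg4 (the NG2 proteoglycan of pericytes) was at 133 ± 16.1 units in 189N3 and 98.4 ± 17.8 in littermates (0.44, SE 0.26, unadjusted p = 0.104 in limma). These values did not overlap, which was so for 4.98% of all loci tested. In Dp(16)1Yey and littermates Cspg4 was at 91.7 ± 49.5 and 129 ± 22.5 (-0.60, SE 0.30, unadjusted p = 0.0717 in limma). Its difference of differences was -1.04 (SE 0.41, unadjusted p = 0.0220, adjusted p = 0.922 in limma), and it was -0.94 without 189N3 replicate 2 and -0.86 with the library labelled Dp(16)1Yey replicate 1 left out. Des, desmin, was near the filter at 6.84 ± 0.798 and 13.99 ± 4.43 units in the 189N3 line (-0.90, SE 0.41, unadjusted p = 0.0449). Vtn was at -0.03 and -0.46 in 189N3 and Dp(16)1Yey, and Ndufa4l2, a mitochondrial protein of pericytes, at -0.46 and -0.80. Smooth muscle was sparse: its markers summed to 147 units in the library labelled Dp(16)1Yey replicate 1 and to 49.8 to 91.6 in the other 13.

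Among 19 genes of the blood-brain barrier, 14 estimates were positive and 5 negative in 189N3 (median 0.21, and 10 and 9 without replicate 2), and 4 and 15 in Dp(16)1Yey (median -0.16, and 7 and 12, median -0.24, without the library labelled replicate 1). Slc22a8, an organic anion transporter, was at 123 ± 28.4 units in 189N3 and 79.1 ± 13.3 in littermates (0.62, SE 0.28, unadjusted p = 0.0409), and at 53.2 ± 38.8 and 78.6 ± 8.03 in Dp(16)1Yey and littermates (-0.82, SE 0.42). Its difference of differences was -1.44 (SE 0.56, unadjusted p = 0.0211, adjusted p = 0.922 in limma). With the library labelled Dp(16)1Yey replicate 1 left out its estimate in that model was -0.43, and without 189N3 replicate 2 it was 0.49 in the other. Slc7a5, a carrier of large neutral amino acids, was at 0.59 and -0.59, and Spock2, a matrix proteoglycan, at 0.48 and -0.78. Cgn, cingulin of tight junctions, was at 0.60 (SE 0.28, unadjusted p = 0.0480) and -0.07. Without 189N3 replicate 2 the first estimates of Slc7a5, Spock2 and Cgn were 0.27, 0.20 and 0.48, and with the library labelled Dp(16)1Yey replicate 1 left out the second ones of Slc7a5 and Spock2 were -0.41 and -0.44.

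Among genes of signals between the cells none was called in either model. Of 14 tested VEGF and tip cell genes, 12 estimates were positive and 2 negative in 189N3 (median 0.15), and 1 and 13 in Dp(16)1Yey (median -0.22). Without 189N3 replicate 2 they were 7 and 7 (median -0.00435), and with the library labelled Dp(16)1Yey replicate 1 left out they were 2 and 12 (median -0.13). Nrp2 and Flt4, named next, then went from -0.90 to -0.36 in Dp(16)1Yey and from 0.80 to 0.54 in 189N3. Leaving out Dp(16)1Yey replicate 3 gave 4 positive and 10 negative estimates (median -0.12), and leaving out replicate 0 gave 2 and 12 (median -0.41). Dll4, the Notch ligand of tip cells, was at 0.29 and -0.56, Flt4, a VEGF-C receptor, at 0.80 and -0.31, Nrp2, a co-receptor, at 0.21 and -0.90, and Aplnr, the apelin receptor, at 0.00 and -0.45. The summed level of the VEGF and tip cell list varied along with that of the hippocampus markers. In Dp(16)1Yey replicates 0 to 3 the list summed to 26705, 8897, 37264 and 12855 units and the markers to 4071, 1990, 7660 and 2514. The part of cells other than vessel cells in these estimates was not tested. Of 6 tested genes of pericyte recruitment, 5 were positive and 1 negative in 189N3 (median 0.19), and 0 and 6 in Dp(16)1Yey (median -0.27). Without 189N3 replicate 2 the numbers were 2 and 4 (median -0.06) in that model. Without the library labelled Dp(16)1Yey replicate 1 they were 1 and 5 (median -0.23) in the other. Pdgfb, the ligand of Pdgfrb, was at 56.2 ± 19.2 units in Dp(16)1Yey and 88.5 ± 21.2 in littermates (-0.67, SE 0.26, unadjusted p = 0.0268, adjusted p = 0.909 in limma), and at 0.28 (SE 0.34) in 189N3, and without these libraries at -0.57 (unadjusted p = 0.0715) and -0.11. Acvrl1, a receptor of the TGF-beta family, was at 0.43 and -0.53, Angpt1, the ligand of the receptor Tek, at -0.16 and -0.27, and Cdh2, N-cadherin, at 0.25 and -0.05.

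The Wnt7 and Norrin pathway, which drives barrier formation, had a median of -0.05 in 189N3 (4 positive, 7 negative) and 0.01 in Dp(16)1Yey (6 and 5), and without these libraries -0.16 (2 and 9) and -0.05 (3 and 8). Axin2, a target of the pathway, was at -0.08 and -0.52, the ligands Wnt7a and Ndp at -0.09 and -0.30 and at -0.20 and -0.27, and the co-receptor Lrp5 at 0.18 and -0.19. Hypoxia response genes had medians of 0.13 and 0.07 (6 positive and 3 negative in each model), and of -0.10 (2 and 7) and 0.01 (6 and 3) without these libraries, with Ndrg1 at 0.49 and 0.07, Bnip3 at -0.04 and 0.17, Egln3 at 0.14 and 0.20 and Adm, adrenomedullin, at 0.15 and -0.31. Of vascular genes inside the triplicated segment, 4 were measured, and none was called in Dp(16)1Yey. Rcan1, an inhibitor of calcineurin, was at 0.35 (SE 0.33), Erg, an ETS factor of endothelium, at 0.28 (SE 0.24), Adamts1, a secreted protease, at 0.15 (SE 0.42) and Ets2 at -0.12 (SE 0.36). Without the library labelled replicate 1 all 4 were positive (median 0.41).

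Between the wild-type embryos of the lines, called genes were found on several lists, in both directions. Of 28 further endothelial genes tested 5 were called, where 3.75% of all loci were: Nos3 rose by 0.94 toward the Dp(16)1Yey line, and Ly6c1 (-1.27), Emcn (-0.89), Itm2a (-0.85) and Clec14a (-0.82) fell, at adjusted p of 0.0380 to 0.0479 in limma. Of 19 barrier genes 3 were called: Slc2a1, the glucose transporter, rose by 0.79 and Apcdd1, a Wnt inhibitor, by 0.86, and the efflux pump Abcg2 fell by 0.66 (adjusted p of 0.0324 to 0.0433). Notch1 (0.78) and Axin2 (0.81) rose and Angpt1 (-0.54) and Bnip3 (-0.56) fell, at adjusted p of 0.0428 to 0.0488 in limma. No further mural gene was called in limma, and 4 of 14 had an unadjusted p under 0.05, a share near the 26% of all loci. None of the 12 called genes was called with the nearly alike littermates averaged (28 loci called) or without any 1 of the 7 libraries (13 to 78 loci called), and all 12 had the same sign in these fits.

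Other cells of the tissue also differed between groups. The summed level of erythroid genes was 13864 to 22152 units in 189N3 and 33811 to 54262 in its littermates, and 6141 to 54233 in Dp(16)1Yey and 4666 to 17281 in its littermates. Estimates were negative for 6 of 6 erythroid genes in 189N3 (median -1.28) and positive for 6 of 6 in Dp(16)1Yey (median 1.23, and 0.68 without the library labelled replicate 1). The 6 genes of meningeal fibroblasts, whose tissue carries its own vessels, summed to 1810 to 3388 units in 189N3 and 2972 to 6368 in its littermates, and to 1075 to 3236 and 1139 to 1490 in the other line. Between wild-type groups all 6 had lower values in the Dp(16)1Yey line (median -1.87), and Col1a1 (-4.44) and Col1a2 (-3.46) were called. Both lost their calls without 189N3 littermate replicate 0 or 2, and Col1a1 also without Dp(16)1Yey littermate replicate 0. The 7 endothelial members summed to 3502 to 5414 units in 189N3, 3745 to 3923 in its littermates, 1911 to 4267 in Dp(16)1Yey and 3431 to 3498 in its littermates, and the mural members to 1834 to 2797, 2006 to 2462, 1032 to 1380 and 1224 to 1317. Markers of neurons (5 genes) and of the hippocampus (3 genes named) were present in every library, at summed levels of at least 60099 and 1989.9 units. The part of these cells in the member values was not tested.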

How the data were processed

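RNA of embryonic mouse hippocampus was sequenced by the authors with a stranded total RNA kit as paired-end reads, although the molecule is labelled as polyA RNA. Per the labels, Bowtie, TopHat and Cufflinks were run against mm10, in versions not given in the sources used here. The methods describe assembly of transcripts and a quantification that corrected for biased fragments and for reads with several positions. In the deposited gene table the unit is signal: the fragments of a locus over a size factor of its library, which came out as whole fragments for 100% of values (relative tolerance 0.001). The signal in the deposited isoform table holds estimated shares of these.

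Locus names differ between the tables and the deposited map to gene symbols, so each locus was matched to the map locus whose isoforms sum to it in all 14 libraries. Of 49110 loci whose mean reached 1, 49065 were matched and 17494 named, while 8 matched more than once were dropped. Transcript GC, length and coordinates are those of GENCODE vM21 (GRCm38, the assembly of mm10).

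Groups and replicate numbers were taken from the labels. Values were tested as log2(value + 1), which understates differences of low genes, if their mean in the libraries compared reached 10. The model was limma 3.58.1 (R 4.3.3), with its trend option, without covariates, fitted over all loci, with Benjamini-Hochberg adjustment and a threshold of 0.05. Groups of fewer than 5 and the depth of 20809134 to 29098454 fragments both limit the precision. The steps were tested on simulated data. Alternatives included other size factors, filters and pseudocounts, a replicate block, edgeR 4.0.16 and DESeq2 1.42.0 on whole fragments, leaving out each library, and, added after the data were seen, GC correction on named loci (a lowess curve per library) and a comparison of model libraries between lines. Exact permutation tests and summaries used SciPy 1.17.1 and pandas 2.3.3 (Python 3.11.15). The members and lists were chosen with earlier results of these data known. Genes named from other lists are up to 4 per list with the smallest unadjusted p in either genotype comparison, the vascular genes of the triplicated segment, and those called between wild-type groups, while Col1a1, Col1a2, Hbb-y, Ptprb, Vwf, Vtn and Col4a1 were named after their values were seen.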

Additional observations from a re-analysis of the deposited data

Results flagged for a closer look

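Kcnj8 in the Dp(16)1Yey group had a library far from the others. Replicate 0 was at 139.43 units, and the next highest of the 4 libraries was at 73.5, a gap of 0.942 of the group's range. This was the only value set apart in this way among 20 groups of 4 libraries examined (10 genes in the Dp(16)1Yey libraries and in their littermates), where chance sets apart about 1 in 20. In the same line, littermate replicates 2 and 3 were at 133 and 131 units, and these 3 libraries had the highest correlations of their deviations with transcript GC (0.62, 0.58 and 0.69). They also had the highest summed neuron markers of that line. The part of GC or of other cells in this value was not tested. Without Dp(16)1Yey replicate 0 the log2 difference of Kcnj8 in this model was -0.43, against -0.19 with it.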

How the results depend on the processing

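No member passed the test in 189N3, in Dp(16)1Yey or in their difference under any alternative run. The number of loci called depended on the fit. In 189N3, where 0 were called, it was 4 with median-ratio size factors, 15 with DESeq2 on whole fragments, 2 on the named loci with a GC value and 0 to 28 with 1 library left out. In Dp(16)1Yey it was 8 with DESeq2 and 0 to 3 with 1 library left out, and in the difference of differences 0 to 1. Between wild-type littermates, where 1351 were called, it was 614 without a filter, 85 without the trend, 40 in one fit of all 4 groups, 3282 with DESeq2, 28 with nearly alike littermates averaged, 3191 on centred named loci, 806 with GC correction and 13 to 78 with 1 library left out. The calls of Rgs5 and Slco1c1 in that comparison were lost without the trend, with alike littermates averaged and without 4 and 5 of the 7 libraries, in each case with the same sign: Rgs5 ranged from -1.15 to -0.93, Slco1c1 from -0.99 to -0.81 and Mfsd2a from 0.52 to 0.82 with 1 library left out, and over the other alternatives their adjusted p ran from 2.95e-09 to 0.132, from 7.29e-08 to 0.209 and from 0.0133 to 0.242. Slco1c1 was also lost in one fit of all 4 groups (0.197), and Mfsd2a in more alternatives than the other two, also with edgeR (0.0577), without a filter (0.0561), with median-ratio size factors (0.0580) and with quantile normalization (0.0633). Between model libraries, where 18 loci were called, it was 1 on named loci with GC, 0 centred, 0 GC-corrected and 15 to 53 with 1 library left out, and Slco1c1 was called without Dp(16)1Yey replicate 0 (-1.89, adjusted p = 0.0414 in limma).

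Replicate numbers are shared between groups but did not mark pairs: libraries of the same number correlated at 0.01, -0.50 and -0.27 in the 189N3 line and at -0.58, -0.03, -0.57 and -0.31 in the Dp(16)1Yey line. With the replicate block 72 loci were called in 189N3, 0 in Dp(16)1Yey, 75 between littermates and 0 in the difference of differences, and no member passed the test in any of them.

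Signs that turned with all libraries in the fit turned to values near 0, from 0.28 for Pdgfrb between littermates and 0.13 for Rgs5 in Dp(16)1Yey. In 189N3 these were Pecam1 (0.0311 with median-ratio size factors, 0.0230 with edgeR, 0.0763 with DESeq2), Rgs5 (0.0011 with median-ratio size factors, 0.0135 with DESeq2), Slco1c1 (-0.0053 with quantile normalization), and, centred and GC-corrected on named loci, Cldn5 (-0.0200 and -0.0444), Cdh5 (-0.0358 and -0.0574), Kcnj8 (-0.0131 and -0.0355), Slco1c1 (-0.0067 centred) and Pdgfrb (-0.0062 GC-corrected). Elsewhere they were Pecam1 in Dp(16)1Yey (-0.0064 with median-ratio size factors), Rgs5 in Dp(16)1Yey (-0.0063 GC-corrected), Pdgfrb between littermates (-0.0299 GC-corrected), Pecam1 in the difference of differences (-0.0232 with median-ratio size factors, -0.0046 with edgeR, -0.0448 with DESeq2) and between model libraries (0.0416 centred, 0.0058 GC-corrected). With 1 library left out, the values in 189N3 ranged from -0.25 to 0.38 for Cldn5, -0.28 to 0.19 for Pecam1, -0.20 to 0.15 for Cdh5, -0.0779 to 0.15 for Slco1c1, -0.00013 to 0.34 for Mfsd2a, -0.10 to 0.34 for Pdgfrb, -0.24 to 0.0824 for Rgs5 and -0.17 to 0.25 for Kcnj8. They ranged from -0.0710 to 0.20 for Pecam1 in Dp(16)1Yey, from -0.17 to 0.30 in the difference of differences, from -0.23 to 0.24 between model libraries, and from -0.0838 to 0.0361 for Cdh5 between littermates. The cause of these changes was not tested.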
